A study of Mus musculus with 5 samples.

Results

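Tubulin, actin and prefoldin are joined by a single folding pathway, and the peaks that 2 RNA-binding maps placed on their mRNAs are described here. The 10 genes were chosen by name, with earlier results of these data known, and a peak was taken as theirs where the tables list their symbol. They were the α-tubulin genes Tuba1a, Tuba1b, Tuba1c and Tuba4a, and the β-tubulin genes Tubb2a, Tubb4b and Tubb5. The others were the actin genes Actb and Actg1, and Pfdn2, a prefoldin subunit gene. Their names matched 19 of 43658 listed peaks, of which 17 were among 14092 PABPC1 peaks, 1 was among 10916 CCT3 peaks and 1 was among 18650 CCT3-2 peaks. Of the 10 genes, 5 were listed for no peak in any list.

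TRiC, also called CCT, is a ring-shaped cytosolic chaperonin that folds newly made actin and tubulin, and CCT3 is 1 of its subunits. Prefoldin is a smaller chaperone that holds nascent actin and tubulin chains and passes them to TRiC. PABPC1, the cytoplasmic poly(A)-binding protein, coats the poly(A) tails of mRNAs, and tubulin mRNAs are known to be degraded on ribosomes when free tubulin is in excess.

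RNA bound by PABPC1 or CCT3 was mapped by eCLIP: the cell lysate is treated with RNase I, the protein is pulled down with the RNA fragments crosslinked to it, and these are sequenced beside an input library made from the lysate itself. The cells were GC-2spd(ts), a line labelled as spermatocyte cells of the mouse, with no genotype change or treatment named in the labels. The samples were 1 PABPC1 immunoprecipitation, 1 PABPC1 input, 2 CCT3 immunoprecipitations (CCT3 and CCT3-2) and 1 CCT3 input. The CCT3-2 labels carry the library name of CCT3, so these are not shown to be independent, and nothing below compares the proteins over replicates.

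Each peak carries the authors' own log2 fold, taken as immunoprecipitation over input, and a −log10 p that stops at 400. Without read totals the depth behind a peak is unknown, and the lack of a listed peak does not show that an mRNA was free of the protein. Intervals are Wilson 95% intervals and cover counting error only. By listed name, PABPC1 peaks lay in 5 of 10 spermatocyte markers, with Sycp2, Piwil1, Spo11, Hormad1 and Ddx4 listed for none. The other PABPC1 counts were 5 of 5 spermatid, 5 of 5 Leydig cell, 4 of 5 Sertoli cell and 5 of 5 fibroblast markers. In the CCT3 list, as in CCT3-2, these 5 counts were 0, 0, 1 (Cyp17a1), 1 (Sox9) and 0. Of all protein-coding genes, 22.6% were listed for a PABPC1 peak, 9.34% for a CCT3 peak and 12.0% for a CCT3-2 peak. In sets this small, counts of 0 or 1 cannot be told from the CCT3 and CCT3-2 shares, and the sets were not matched on expression. The part of these cell types in the results below was not tested.

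PABPC1 peaks were listed for Actb, Tuba1b, Tuba4a, Tubb5 and Pfdn2, whereas CCT3 and CCT3-2 peaks were listed for Tuba4a alone. The 5 of 10 genes with a PABPC1 peak (50.0%, 95% interval 23.7 to 76.3%) stand beside 22.6% of 21900 protein-coding genes in that list. That value is just outside the interval and close to its lower end. No excess is read from it, since the 10 genes were chosen with earlier results of these data known and were not matched on expression. The 1 of 10 genes with a CCT3 peak (10%, 1.79 to 40.4%) stands beside 9.34% of protein-coding genes, and the 1 of 10 in CCT3-2 beside 12.0%. These CCT3 shares are near their background. At a stricter threshold (log2 fold 4 or more and −log10 p 5 or more) a PABPC1 peak remained in 4 of the 10 genes, against 13.9% of protein-coding genes. There no CCT3 or CCT3-2 peak of these genes remained, against 4.79% and 5.25% of protein-coding genes.

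**Figure D1:**
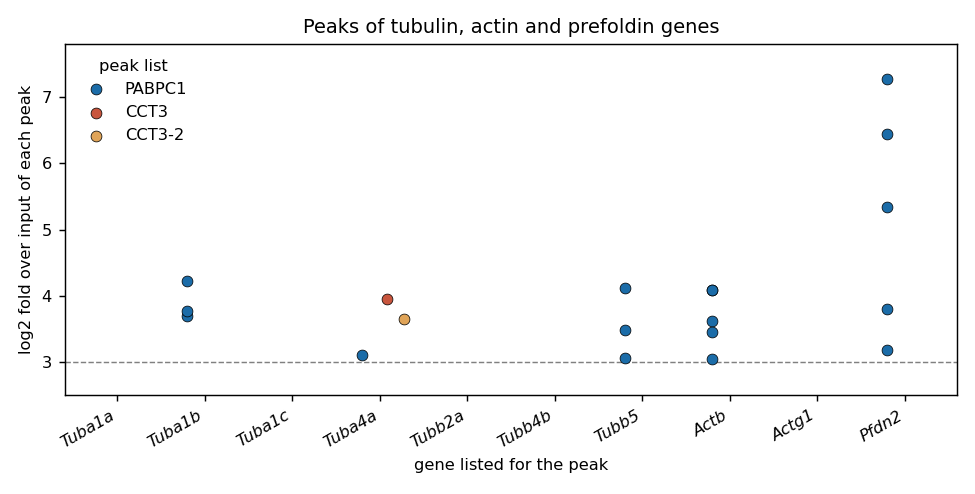
Log2 fold over input of each listed peak (vertical axis) for the 10 genes (horizontal axis), coloured by peak list, with a dashed line at a log2 fold of 3. Pfdn2 reaches 7.27 while the PABPC1 peaks of the other 4 genes lie between 3.05 and 4.22, the 2 highest Actb points overlapping at 4.08 and 4.09, and Tuba4a is the gene with points of all 3 lists.

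The PABPC1 peaks of these genes were mostly 3′ UTR peaks of modest fold. The deposited annotation placed 16 of the 17 in 3′ UTRs (94.1%, 73.0 to 99.0%) and 1 in a promoter, and the interval holds the 79.9% found over all PABPC1 peaks. The median log2 fold of the 17 was 3.78 (range 3.05 to 7.27), against 4.19 over the whole list, and 13 of the 17 lay below that value. Their median −log10 p was 19.7, against 10.4 over the list, and their median width was 48 bases (15 to 109), against 50. Neighbouring peaks of a gene are not independent of each other.

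Actb encodes the cytoplasmic β-actin of the cell cortex and of stress fibres. Its RefSeq span is chr5:142903115-142907976 on the minus strand (gene ID 11461). The PABPC1 list gave it 5 peaks, all in the 3′ UTR and all between 142903122 and 142903409, a stretch of 288 bases of which the peaks covered 246 (85.4%). From 5′ to 3′ along the mRNA their log2 folds were 3.05, 3.63, 4.08, 3.45 and 4.09. Their −log10 p values in the same order were 71.7, 32.2, 70.5, 68.5 and 400. The peak nearest the 3′ end was the widest of the 17 at 109 bases (142903122 to 142903230), and its edge lay 7 bases from the end of the gene span.

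Actb had the lowest fold of the 17 peaks, and 4 of its 5 peaks had a higher −log10 p than any peak of the other genes. A higher fold than its best peak was listed for 54.1% of PABPC1 peaks and for 70.1% of PABPC1 genes by their best peak. Its −log10 p of 400 is the ceiling, shared by 677 peaks (4.80% of the list), and 85.4% of those 677 had a higher fold than this Actb peak. The 5 peaks also lie within the span of the lncRNA gene Gm38733 on the plus strand, but the peaks are listed on the minus strand, that of Actb.

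Tuba1a and Tuba1b encode α-tubulins, the partner of β-tubulin in the microtubule dimer. The tables list 3 PABPC1 peaks for Tuba1b and none for Tuba1a, yet all 3 lie within the RefSeq span of Tuba1a, chr15:98949847-98953501 (minus strand, gene ID 22142). The span of Tuba1b, chr15:98931429-98934390 (minus strand, gene ID 22143), ends 15.5 kb from the nearest of them. The listed transcript of these peaks, from 98932137 to 98953551, runs across both genes. By position, then, the counts turn around, with 3 peaks in Tuba1a and 0 in Tuba1b. The peaks are called Tuba1a peaks below.

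From 5′ to 3′ the Tuba1a peaks had log2 folds of 3.70, 4.22 and 3.78 and −log10 p values of 9.78, 6.26 and 5.71. They lay between 98949865 and 98950003, all annotated as 3′ UTR, and covered 115 of these 139 bases (82.7%). Their midpoints were 132.5, 96.5 and 39.0 bases from the 3′ end of Tuba1a, so that all of them lay in the last part of the mRNA, as in Actb. The α-tubulin genes are close copies of each other in coding sequence, but these peaks are annotated as 3′ UTR. How alike the copies are there was not measured, so whether reads shared between copies were placed on either was not tested.

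Tubb5 encodes a β-tubulin made in most cell types. Its span is chr17:35833920-35838301 on the minus strand (gene ID 22154). The 3 PABPC1 peaks, all in the 3′ UTR, stood apart from each other, with 396 and 381 bases between neighbours, and covered 154 of 931 bases (16.5%). From 5′ to 3′ their log2 folds were 4.11, 3.49 and 3.06, and their −log10 p values 19.7, 11.4 and 3.68. Their midpoints lay 934, 472 and 38.5 bases from the 3′ end, so the listed fold and −log10 p were lowest in the peak closest to the end. This order is the reverse of that in Pfdn2 below, and with 3 peaks of a single library it has no replicate check.

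Pfdn2 encodes a subunit of prefoldin and had the highest fold of the group. Its RefSeq span is chr1:171344954-171359254 on the plus strand (gene ID 18637). The PABPC1 list gave it 4 peaks in the 3′ UTR and 1 in the promoter class. From 5′ to 3′ the 3′ UTR peaks had log2 folds of 3.81, 5.35, 6.44 and 7.27 and −log10 p values of 10.5, 20.4, 46.7 and 51.1. Both values were higher at each step towards the 3′ end.

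The 4 Pfdn2 peaks formed a nearly closed stretch from 171357942 to 171358172, covering 215 of 231 bases (93.1%). The highest, at 171358122 to 171358172, had a fold exceeded by 1.54% of PABPC1 peaks. By its best peak Pfdn2 was exceeded by 2.65% of PABPC1 genes. For the best peaks of Tuba1a (listed as Tuba1b), Tubb5 and Tuba4a the shares of genes above them were 65.7%, 69.3% and 98.1%. The edge of the highest Pfdn2 peak lay 1082 bases before the end of the RefSeq span. The transcript listed for that peak (171356390 to 171357970) ends before the peak begins. The longer one listed for the promoter-class peak (171345730 to 171358402) ends 230 bases after the highest peak. Such a mismatch is not particular to Pfdn2. The transcripts listed for the Actb, Tubb5 and Tuba4a peaks end at 142904351, 35835605 and 75215956 on the minus strand, also before those peaks begin.

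The promoter-class peak of Pfdn2 lay near the start of the mRNA and was the only peak of the 17 outside a 3′ UTR. It lay at chr1:171345709-171345787 on the plus strand, with a fold of 3.18 on the log2 scale and 15.3 as −log10 p. Counted from the later of 2 RefSeq start sites, at 171345675, it reached from 34 to 112 bases downstream, so it lay on the transcript that begins there and not upstream of it. The listed transcript starts later, at 171345730, 21 bases inside the peak.

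Tuba4a, a further α-tubulin gene, had a peak in every list at the same place. Its span is chr1:75214972-75221261 on the minus strand (gene ID 22145). The PABPC1 peak (75215600 to 75215645) was listed with a log2 fold of 3.10 and 3.77 as −log10 p. For the CCT3 peak (75215608 to 75215670) these values were 3.96 and 6.21. For the CCT3-2 peak (75215596 to 75215661) they were 3.65 and 4.35. All 3 were annotated as 3′ UTR, a class that held 18.04% of all CCT3 peaks and 16.5% of all CCT3-2 peaks.

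The PABPC1 and CCT3 peaks of Tuba4a shared 38 bases, which were 82.6% of the PABPC1 peak and 60.3% of the CCT3 peak. The CCT3-2 peak held all 46 bases of the PABPC1 peak and shared 54 bases with the CCT3 peak. The share of all PABPC1 peaks that overlap a CCT3 peak is not given here, so whether such an overlap is unusual cannot be read from it. None of these peaks was strong within its list. Of PABPC1 peaks 96.6% had a higher fold, of CCT3 peaks 54.7% and of CCT3-2 peaks 59.2%, and none of the 3 passed the stricter threshold. PABPC1 had its own input, while a single CCT3 input is given for CCT3 and CCT3-2. Folds of different lists are not compared here.

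The Tuba4a peaks also lie at the end of Stk16, a kinase gene on the plus strand whose span ends at 75215606. The PABPC1 peak overlapped that span by 7 bases and the CCT3-2 peak by 11, while the CCT3 peak began 2 bases beyond it. The PABPC1 and CCT3-2 peaks are listed on the minus strand, that of Tuba4a, and the CCT3 table gives no strand. The midpoints of the 3 peaks lay 650.5, 667 and 656.5 bases from the 3′ end of Tuba4a in PABPC1, CCT3 and CCT3-2.

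**Figure D2:**
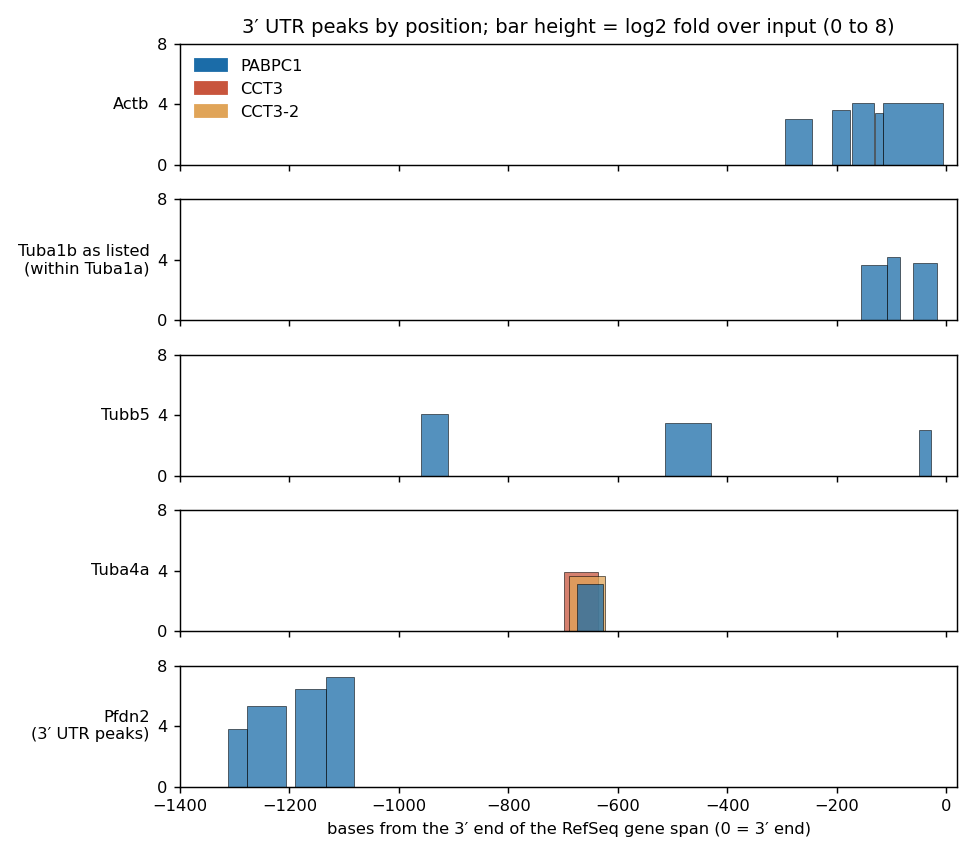
Position of the 3′ UTR peaks of 5 genes, in bases from the RefSeq 3′ end of each gene (horizontal axis), with bar width giving the peak width and bar height the log2 fold over input, coloured by peak list. Actb and Tuba1a peaks are centred within 270 bases of the end, Tubb5 peaks are spread over 931 bases, Pfdn2 bars step up from 3.81 to 7.27 towards the end, and the bars of the 3 lists overlap in Tuba4a.

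Over the 5 genes, 10 of the 16 PABPC1 3′ UTR peaks were centred no more than 500 bases from the 3′ end of the span that holds them (62.5%, 38.6 to 81.5%). Beside it, the share was 50.5% of 7498 3′ UTR peaks of the PABPC1 list that lie in the span of their listed gene, a value inside that interval. The 2 rules differ, since the 3 Tuba1a peaks count among the 16 but lie outside the span of Tuba1b, their listed gene. All 3 are near the end, so counting them raises the share of the 16 and shortens their median distance. The median distance was 231 bases for the 16 peaks (38.5 to 1294.5) and 489.5 bases over the list. The 10 near peaks comprised all 5 of Actb, all 3 of Tuba1a and 2 of Tubb5, whereas none of the 4 in Pfdn2 was within 500 bases of the RefSeq end.

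Some of these log2 folds recurred exactly in other peaks of the list. Of the 17 PABPC1 peaks, 8 had exactly the fold of at least 1 other peak of the list (within 1e-06), as did 69.8% of all PABPC1 peaks. The fold of 3.06 of the Tubb5 peak nearest the 3′ end was listed for 35 other peaks, that of the most 5′ Pfdn2 3′ UTR peak (3.81) for 30 and that of the Tuba1a peak nearest the 3′ end (3.78) for 19. None of the 5 Actb folds and none of the 3 highest Pfdn2 folds was shared with another peak.

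**Figure D3:**
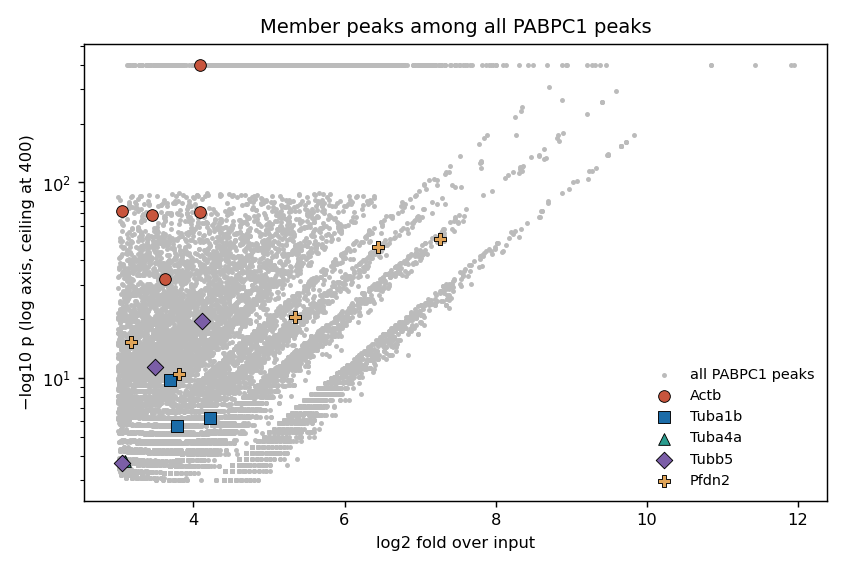
Log2 fold over input (horizontal axis) against −log10 p (vertical axis, log scale, ceiling at 400) for all 14092 PABPC1 peaks in grey and the 17 peaks of the 5 genes as coloured symbols. Actb symbols lie high at folds of 3.05 to 4.09, the 3 highest Pfdn2 symbols lie to the right at 5.35 to 7.27, and Tuba4a (under a Tubb5 symbol) and the weakest Tubb5 peak lie in the lower left corner.

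Among the 10 genes, the other α- and β-tubulin genes and Actg1 had no peak in their own spans in any list. Tuba1c, another α-tubulin gene, lay 79.9 kb from the nearest PABPC1 peak and 44.2 kb from the nearest CCT3 peak. For the β-tubulin gene Tubb4b these distances were 21.9 kb and 21.6 kb. For Tubb2a, also a β-tubulin gene, the nearest PABPC1 peak was 669.5 kb away and the nearest CCT3 peak 40.3 kb. CCT3-2 gave distances of 44.2, 21.2 and 40.3 kb for Tuba1c, Tubb4b and Tubb2a. The nearest peak to any of these 3 genes was thus 21.2 kb away.

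Actg1 encodes cytoplasmic γ-actin, the close relative of the Actb protein, and had no peak in any list. A PABPC1 peak lay 223 bases beyond its 5′ end, at chr11:120348719-120348863, with a log2 fold of 3.76 (−log10 p 31.0). It is listed on the plus strand, opposite to Actg1, for the lncRNA gene 0610009L18Rik, whose span (120348678 to 120351190) starts 182 bases from that of Actg1 and runs the other way. That gene carried a further PABPC1 peak at 120351134 to 120351180, with a log2 fold of 5.06 (−log10 p 3.87). The peak near the start enters the RefSeq promoter window of Actg1 (GRCm38.p6), and 30 bases there are printed on the strand of the peak, with the 27 under it in capitals, since this is the listed peak nearest to Actg1.
Actg1 promoter window, chr11:120348716-120348745, plus strand: ggaGGCCCGGTTCTTGCTCGCGGGGGTCTC
No CCT3 or CCT3-2 peak was listed for 0610009L18Rik, and the nearest to Actg1 was 69.0 kb away in each list.

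Other genes of the cytoskeleton and its folding pathway were read from 9 lists holding 69 genes. PABPC1 peaks were listed for 32 of the 69 (46.4%, 35.1 to 58.0%), against 22.6% of protein-coding genes, and CCT3 peaks for 3 (4.35%, 1.49 to 12.0%), against 9.34%. CCT3-2 peaks were listed for 5 (7.25%, 3.13 to 15.9%), against 12.0%. The genes of these lists were chosen for their roles, with earlier results of these data known, and not matched on expression, which was not measured. The counts of the single lists below stand beside the same 22.6%, 9.34% and 12.0%, and each rests on few genes. Of the 119 PABPC1 peaks, 103 were annotated as 3′ UTR (86.6%, 79.3 to 91.6%). Only 76 of the 119 lay in the RefSeq span of the listed gene, so a named gene whose peaks lie partly or wholly outside its span is given with the gene that holds them, and the peaks of the other named genes lie in their own spans.

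**Figure D4:**
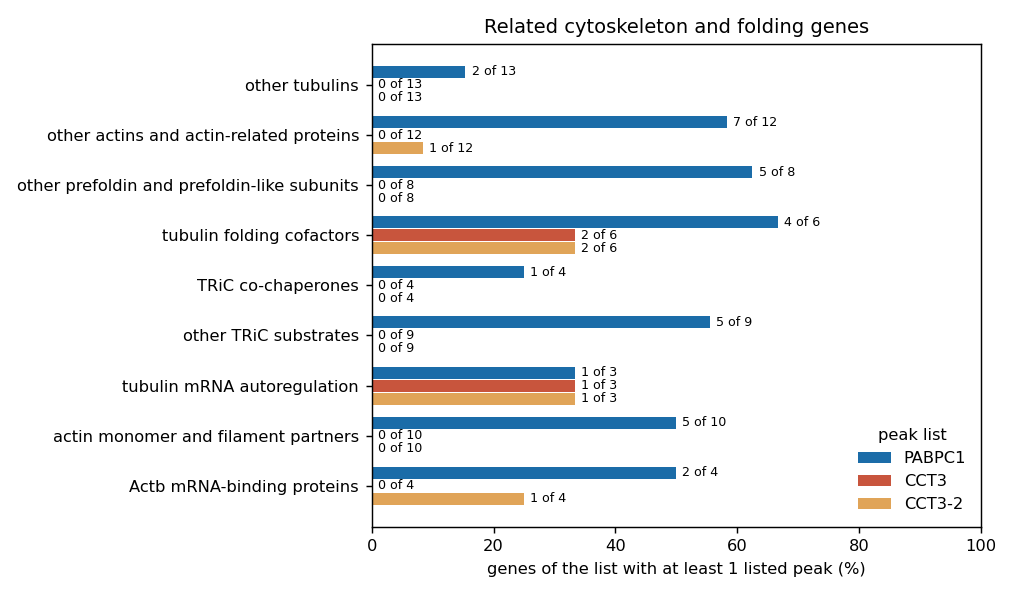
Share of genes with at least 1 listed peak (horizontal axis, percent) in 9 lists of related genes (vertical axis), with a bar and the gene count for each peak list. PABPC1 bars range from 2 of 13 other tubulins to 4 of 6 tubulin folding cofactors, and CCT3 bars appear in 2 of the 9 lists.

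PABPC1 peaks were also listed for other prefoldin genes. These were 5 of 8 prefoldin and prefoldin-like genes (62.5%, 30.6 to 86.3%), against 22.6% of protein-coding genes, with all their peaks within the spans of these genes. None of the 8 was listed for a CCT3 or CCT3-2 peak (interval 0 to 32.4% in each). That cannot be told from the 9.34% and 12.0% of protein-coding genes in these lists. Pfdn4, a prefoldin subunit gene, had 5 peaks up to a log2 fold of 5.93, 3 in the 3′ UTR and 2 in other exons. Vbp1, which encodes a further subunit, had 2 peaks up to 5.86, and Pfdn6, also a subunit gene, had 1 at 4.34. At the stricter threshold 5 of the 8 genes kept a PABPC1 peak, against 13.9% of protein-coding genes. Over all 9 lists 25 of the 69 genes did.

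Among 13 further tubulin genes PABPC1 peaks were listed for 2 (15.4%, 4.33 to 42.2%), against 22.6% of protein-coding genes. Tuba8, an α-tubulin gene, had 1 peak at 3.64. Tubb6, a β-tubulin gene, was listed for 3 with folds up to 5.07, but only 1, at 3.41, lay in its span, the others lying in Afg3l2 and Cidea. By position Tubb3, a β-tubulin gene best known from neurons, held 2 peaks up to 5.71 that the table lists for its neighbour Def8. It was named after its values were seen.

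Of 12 further actin and actin-related genes 7 were listed for a PABPC1 peak (58.3%, 32.0 to 80.7%), against 22.6% of protein-coding genes. The highest fold, 6.71, was listed for Actg2, an enteric smooth muscle actin gene, but all 5 of its peaks lie in Stambp and Gm38844. Actr10, which encodes a dynactin subunit, had 5 peaks in its own 3′ UTR up to 5.67, and 2 CCT3-2 peaks of the promoter class up to 4.69. Acta2, the vascular smooth muscle actin gene, had 2 exonic peaks up to 4.98 in its span.

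Partners of the actin monomer and filament were listed for a PABPC1 peak in 5 of 10 cases (50.0%, 23.7 to 76.3%), against 22.6% of protein-coding genes. Cfl1 and Cfl2, which encode actin-severing cofilins, had 5 peaks up to 5.66 and 7 peaks up to 5.23, all in their spans. Pfn2, a profilin gene, was listed for 7 peaks, of which 6 up to 4.91 lay in its span and the highest, at 6.46, in Rnf13. By position Pfn1, another profilin gene, named after its values were seen, held 4 peaks up to 3.75 that are listed for Rnf167. Of 4 genes for proteins that bind Actb mRNA, Khsrp had 4 peaks in its own span up to 6.84, while all 7 listed for Igf2bp2 (up to 4.61) lie in Senp2. Igf2bp3, a further zipcode-binding protein gene, had 3 intronic CCT3-2 peaks up to 3.63, where its span overlaps that of Malsu1.

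Tubulin folding cofactors assemble the α/β dimer after TRiC has released the chains. CCT3 peaks were listed for 2 of the 6 (33.3%, 9.68 to 70.0%), against 9.34% of protein-coding genes. The list of tubulin mRNA autoregulation genes had the same share, at 1 of 3. The CCT3 peaks of Tbcd, 1 of the 2 cofactor genes, lie within B3gntl1. PABPC1 peaks were listed for 4 of the 6, led by Tbca with 3 up to 5.12, Tbcb with 1 at 4.76 and Tbcc with 1 at 4.29. Tbcc also had 2 CCT3 peaks up to 4.22 (46891103 to 46891183 on chromosome 17) and 2 CCT3-2 peaks up to 4.42 (46891109 to 46891206). The CCT3 table annotates these as exon and the CCT3-2 table as promoter, although the 2 intervals nearly coincide. Tbcd was listed for 3 CCT3 and 7 CCT3-2 peaks, of which 1 and 2 touch its span, all of them within B3gntl1.

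Other TRiC substrates and the tubulin autoregulation genes completed the set. PABPC1 peaks were listed for 5 of 9 further substrate genes (55.6%, 26.7 to 81.1%), against 22.6% of protein-coding genes. No CCT3 peak was listed for any (interval 0 to 29.9%), which cannot be told from the 9.34% of protein-coding genes. Vhl, the gene of the von Hippel-Lindau tumour suppressor, was listed for 13, of which 3 up to 5.93 lay in its span and 10 in Brk1. Gnb1, a G protein β subunit gene, had 2 up to 5.69 and Stat3, a transcription factor gene, 1 at 5.47. Of 4 TRiC co-chaperone genes, 1 (25.0%, 4.56 to 69.9%) was listed for a PABPC1 peak, Pdcl2 at 3.18.

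Ttc5 encodes the factor that recognises nascent tubulin chains, and Scaper encodes the adaptor that links it to a deadenylase. Ttc5 was listed for 6 PABPC1 peaks, 1 of them in its own span at 6.29 and 5 in Ccnb1ip1. Scaper had 7 CCT3 peaks up to 4.86 and 8 CCT3-2 peaks up to 4.67, all intronic and all within its span. By position it also held 3 PABPC1 peaks up to 5.59, listed for Isl2.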

How the data were processed

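The deposited files were 3 peak tables, made by the authors, each for 1 immunoprecipitation. The deposited log2 values are the authors' fold per peak, and the deposited −log10 values are the authors' p per peak with a ceiling of 400. The CCT3 table names both columns, and the unnamed columns of the other tables, with like ranges, were taken for the same 2 quantities. The submitters' processing notes name bcl2fastq 2.20 and mm10. The sources used here do not give the aligner, peak caller or read totals.

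The 10 genes and all gene lists were chosen with earlier results of these data known. Peaks were taken by listed symbol, and the genomic class from the deposited annotation. RefSeq spans (GRCm38.p6, the same build) matched all 10 genes and all 69 genes of the wider lists. Distances run from the peak midpoint to the 3′ end of the span that holds the peak. Overlaps needed 1 base. Named genes were the 10, wider-list genes with a CCT3 or CCT3-2 peak, and up to 3 per list by PABPC1 fold. Python 3.11.15, numpy 2.4.6, pandas 2.3.3 and matplotlib 3.10.9 were used, and the counting functions were tested on simulated data. No test across samples was run, since PABPC1 has 1 list and the 2 CCT3 lists are not shown to be independent. The bases printed come from a RefSeq promoter window (GRCm38.p6), the sequences of the 3′ UTR peaks were not analysed here, and a further promoter sequence is not reported here. Alternatives were a stricter threshold, assignment by position, merging within 10 bases, 50% reciprocal overlap, covered bases, peaks beyond 1000 bases of the start and the CCT3-2 list.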

Additional observations from a re-analysis of the deposited data

How the results depend on the processing

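Of 28 alternative values for 11 results, 17 stayed within 1.5 times the main count or distance, or inside the interval of the main share. At the stricter threshold PABPC1 peaks of the 10 genes fell from 17 to 7, CCT3 peaks, genes with a CCT3 peak and PABPC1 peaks overlapping CCT3 each from 1 to 0, since fewer peaks pass. There the 3′ UTR share was 100%, as it was for peaks beyond 1000 bases of the start, and the median distance of PABPC1 peaks to the 3′ end was 934 bases in place of 270. Merging within 10 bases left 11 PABPC1 peaks. With the CCT3-2 list, wider-list genes with a peak were 5 in place of 3. By position Tuba1a held 3 PABPC1 peaks and Tuba1b 0. Assignment of the wider lists by position, chosen after seeing the data, gave 39 genes in place of 32 in PABPC1 and 3 in CCT3. The cause was not tested where the setting itself does not remove peaks. No paired analysis was possible because there was 1 PABPC1 list and no sample numbers that pair it with a CCT3 list. Depth is unknown, so absence of a peak does not show absence of binding.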
